A study of Mus musculus with 6 samples.

Results

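The wild type (wt) baseline of a mouse leukaemia model was described from 2 of the 6 RNA-seq libraries of the study, the wt cultures labelled replicate 1 and replicate 2. Primary whole bone marrow of C57BL/6 mice was transduced on day 0 with a retrovirus that encodes the oncogene BCR-ABL p185 and, behind an internal ribosome entry site, yellow fluorescent protein. The cells were cultured for 14 days, and polyadenylated RNA was sequenced from what the labels call BCR-ABL+ transformed proB-ALL, a B cell acute lymphoblastic leukaemia of pro-B cell type. The other 4 libraries came from marrow that was homozygous for a mutation of zinc finger 1 (ZnF1 mutant) or zinc finger 4 (ZnF4 mutant) of Ikaros, transduced and cultured in the same way, with 2 libraries each. Those libraries are used below only to see how their own replicates differ. The labels name no sort of the transduced cells, and the sources used here give neither the age nor the sex of the mice.

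Levels are RPKM, reads scaled to the length of the transcript in kilobases and to the size of the library, summed over the RefSeq transcripts of a gene. A gene was kept where it had at least 1 RPKM in both wt libraries, which held for 10400 of the 22099 genes of the table (47.1%). At this limit, 255 kept genes had their lower value at 1.0 to 1.1 RPKM, and 249 genes just outside had it at 0.8 to 0.9. A further 407 genes reached 1 RPKM in replicate 1 alone and 182 in replicate 2 alone, and 7666 genes were listed at 0 in both. Each kept gene was ranked within each library, and its percentile is its place among the kept genes, with 100 as the highest. Where a gene has 2 values below, the first is replicate 1 and the second replicate 2. With 1 group of 2 libraries there is no comparison of groups, and no p-value is given. The design text calls the libraries biological replicates, and nothing further says how the 2 cultures were set up.

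BCR-ABL is a fusion of the breakpoint cluster region protein with the Abl tyrosine kinase. The kinase is active without a ligand and feeds the RAS-ERK, PI3K-AKT and JAK-STAT pathways, and the p185 form is known from acute lymphoblastic leukaemia. Pro-B cells are B cell precursors that rearrange the immunoglobulin heavy chain locus. On success the heavy chain pairs with a surrogate light chain, made of VpreB and lambda 5, and with the signalling chains CD79A and CD79B, to form the pre-B cell receptor (pre-BCR). Signals of the receptor drive large pre-B cells to divide, before they leave the cycle and rearrange a light chain.

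Transcripts of the surrogate light chain and its signalling partners were among the most abundant of the whole transcriptome. All 6 genes of this list, called pre-BCR genes below, were kept. Their median percentile was 99.5, and 5 of the 6 lay above the 90th percentile. Igll1, which encodes lambda 5, stood at 817.5 and 621.6 RPKM and held rank 16 in each library. Vpreb3 is listed as a VpreB family member that binds newly made heavy chains, not as a chain of the receptor. It stood at 1356.6 and 714.1 RPKM, at ranks 10 and 13. Vpreb1 was at 332.5 and 162.2 RPKM and Vpreb2 at 81.6 and 45.6. Cd79b was at 428.0 and 408.0 RPKM and Cd79a at 433.1 and 222.6. Each of the 6 values was higher in replicate 1, and the median log2 ratio of the libraries over the list was 0.88, against 0.10 over all kept genes. Vpreb3 took 76.6% and 77.5% of the summed RPKM of the 3 Vpreb genes.

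The start regions of Igll1 and the Vpreb genes are shown because these genes are so abundant. Unlike most kept genes, they also hold few CpG dinucleotides there (below). They are the 300 bases from 250 before to 50 after the annotated start in RefSeq, build GRCm38.p6, 5′ to 3′ on the strand of the gene. Igll1 is at chr16:16863936-16864235 (minus strand), Vpreb1 at chr16:16869206-16869505 (minus strand), Vpreb2 at chr16:17980315-17980614 (plus strand) and Vpreb3 at chr10:75948050-75948349 (plus strand). Capitals mark every match, on either strand, to CANCTG, a form of the E-box bound by E proteins such as the product of Tcf3, and to CCCNNGGG, a form of the motif of EBF factors.
Igll1: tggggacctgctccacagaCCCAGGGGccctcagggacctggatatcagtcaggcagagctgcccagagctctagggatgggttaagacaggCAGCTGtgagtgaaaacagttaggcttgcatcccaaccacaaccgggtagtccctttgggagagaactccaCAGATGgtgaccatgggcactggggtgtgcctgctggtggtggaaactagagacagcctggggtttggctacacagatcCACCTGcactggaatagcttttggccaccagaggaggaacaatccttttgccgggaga
Vpreb1: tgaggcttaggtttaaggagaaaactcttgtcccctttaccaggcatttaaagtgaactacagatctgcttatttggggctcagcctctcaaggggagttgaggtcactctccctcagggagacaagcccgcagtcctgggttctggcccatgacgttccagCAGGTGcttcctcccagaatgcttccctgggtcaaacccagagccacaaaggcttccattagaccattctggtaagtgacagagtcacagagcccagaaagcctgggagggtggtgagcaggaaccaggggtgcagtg
Vpreb2: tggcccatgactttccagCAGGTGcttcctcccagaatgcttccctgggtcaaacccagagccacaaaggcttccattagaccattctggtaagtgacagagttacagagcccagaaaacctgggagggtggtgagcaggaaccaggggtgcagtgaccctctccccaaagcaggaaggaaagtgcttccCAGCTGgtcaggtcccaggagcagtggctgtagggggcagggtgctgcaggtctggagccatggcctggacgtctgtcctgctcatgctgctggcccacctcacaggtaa
Vpreb3: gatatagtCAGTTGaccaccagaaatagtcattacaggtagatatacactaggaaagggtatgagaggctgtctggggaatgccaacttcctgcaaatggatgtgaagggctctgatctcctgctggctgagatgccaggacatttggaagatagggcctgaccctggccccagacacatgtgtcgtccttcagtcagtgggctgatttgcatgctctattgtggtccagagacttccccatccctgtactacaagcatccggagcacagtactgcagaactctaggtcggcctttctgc
Igll1 holds 3 matches to CANCTG and 1 to CCCNNGGG, Vpreb2 holds 2 to CANCTG, and Vpreb1 and Vpreb3 hold 1 each. The windows of Vpreb1 and Vpreb2 are copies of one stretch: shifted by 144 bases, 156 bases overlap and 153 of them are identical. Whether the transcripts of these genes are as alike was not tested. The sources used here do not say how reads shared by near-identical genes were counted. The split of reads between Vpreb1 and Vpreb2 is therefore uncertain, and so is the share of Vpreb3 among the Vpreb genes. The window of Cd79a holds 1 CANCTG as well. All 5 pre-BCR genes with a single annotated start thus matched, against 40.5% of kept genes and 51.1% of all genes of the promoter table. The match of Vpreb1 and the first match of Vpreb2 are the same site in the copied stretch, so these genes are not independent counts. The share for CCCNNGGG was 1 of 5, against 17.2% of kept genes. A match is a description of the letters and does not show that a factor was bound.

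These 5 windows, in which Vpreb1 and Vpreb2 share the copied stretch, also held few CpG dinucleotides. The ratio of observed to expected CpG was over 0.6 in 0 of the 5, against 78.9% of the 5874 kept genes with a matched single start and 22.9% of genes below 1 RPKM in both libraries. Among kept genes the share was 81.7% in the 10% of highest level and 60.4% in the 10% of lowest level. Of the kept B lineage surface and signal genes 6 of 17 were over 0.6, and the transcription factors with known roles in blood cells had 24 of 32. Other short motifs also differed in frequency: CCGGAAG, the core of many ETS factor sites, was found in 21.1% of kept genes and 3.43% of genes below 1 RPKM, and TATAAA in 6.32% and 20.9%. CCAAT, the core of the NF-Y site, was found in 23 of 30 mitosis genes and 19 of 31 DNA replication genes, against 40.3% of kept genes.

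The labelled cell type was set against marker lists of B cell stages. Of the 10 pro-B markers, 9 were kept, with a median percentile of 92.4. Cd24a, the heat stable antigen, stood at 237.7 and 208.3 RPKM, and Spn, which encodes CD43, at 209.3 and 126.6. Dntt, the terminal transferase that adds bases at heavy chain joints, was at 189.2 and 161.4 RPKM. Bst1 was at 89.7 and 87.5, Cd93 at 74.9 and 82.0, and Ptprc, which encodes CD45 with its B220 form, at 55.8 and 70.2. The markers of this list were not high throughout. Il7r, the receptor chain for the growth factor interleukin 7, stood at 15.3 and 21.3 RPKM, at percentiles 52.9 and 65.7. Rag1 and Rag2, which cut antigen receptor genes, stood at 5.4 and 8.7 RPKM and at 4.4 and 8.6, so terminal transferase was more than 10 times as abundant per length as either. Kit, the stem cell factor receptor found on pro-B cells, was below the limit at 0.4 and 0.3 RPKM.

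All 9 large pre-B markers were kept, with a median percentile of 96.9. They include the Vpreb genes and Igll1, which pro-B cells also express. Enpep, the surface peptidase known as BP-1, stood at 136.7 and 144.0 RPKM, and Ccnd3, the cyclin that pre-BCR signals use, at 536.9 and 223.8. Cd2 was at 55.3 and 56.2 RPKM. Il2ra, which encodes CD25, was at 7.1 and 8.0 RPKM, and the tetraspanin gene Cd9 at 7.4 and 5.3.

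Markers of later stages were mostly low. Of 22 genes, 16 were kept, with a median percentile of 28.0. Ms4a1, which encodes CD20, stood at 1.1 and 2.0 RPKM, and the inhibitory receptor gene Cd22 at 5.7 and 6.3. Fcer2a, Cr2, Cd40, Cd83, Ciita and H2-Eb1 were below the limit. Exceptions were Cd74, the invariant chain of class II antigen presentation, at 193.8 and 104.9 RPKM, the homing receptor Cxcr5 at 57.5 and 45.4, and the class II gene H2-Ab1 at 40.1 and 24.1. Macrophages also express the class II genes, and macrophage transcripts were present (below). At the other end, 3 of 11 early progenitor markers were kept. Flt3 was at 0.1 RPKM in both libraries, Cd34 at 0.3 and 0, and Ly6d, which marks lymphoid progenitors committed to the B lineage, at 73.9 and 43.1.

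**Figure D1:**
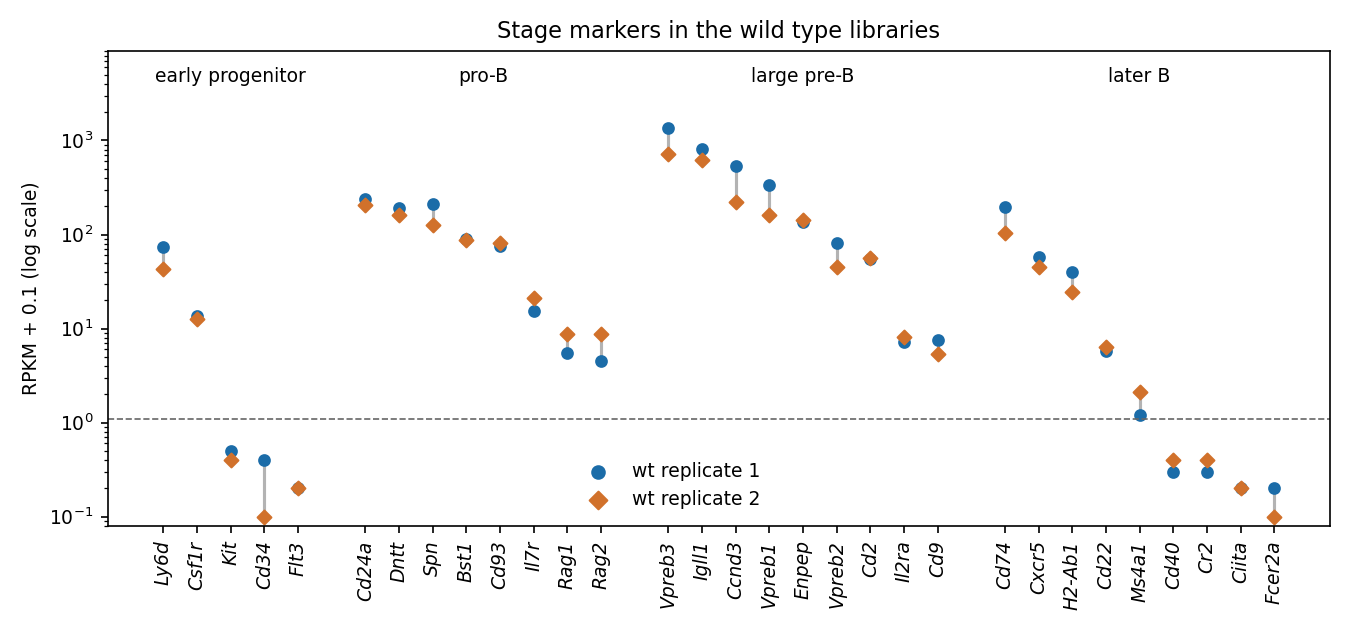
Level of chosen stage markers in wt replicate 1 (circles) and wt replicate 2 (diamonds), as RPKM + 0.1 on a log axis; the dashed line is the limit of 1 RPKM. Most pro-B and large pre-B markers lie well above the line, led by Vpreb3 and Igll1, while Kit, Flt3, Cd34, Cd40, Cr2, Ciita and Fcer2a lie below it.

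All 28 listed genes of the B cell surface and its signalling chain were kept, with a median percentile of 87.9. The list was chosen with earlier results known, and it also holds the transcription factor gene Bcl11a. Surface genes below the limit, such as Cd40 and Cr2, stand in the list of later stages. The count thus depends on which genes were listed. The tetraspanin genes Cd37 and Cd81 were at 469.8 and 203.0 and at 268.0 and 156.9. The adaptor Blnk, which links the receptor to its effectors, was at 245.2 and 210.6 RPKM, Plcg2 at 131.2 and 102.9 and the kinase Btk at 85.9 and 97.0. Syk, listed under the symbol Sykb, was at 104.8 and 89.3. Among the SRC family kinases, Blk was the highest in both libraries, with 33.2% and 33.6% of the summed RPKM of the 8 genes, followed by Fyn at 56.0 and 48.9 RPKM, Lck at 46.2 and 27.4 and Lyn at 26.6 and 27.5. Csk, which restrains these kinases, was higher than any of them, at 218.4 and 143.6 RPKM. The inhibitory receptor gene Fcgr2b was at 16.9 and 15.6 RPKM, and the lowest genes of the list were Fcrla at 3.2 and 4.2 and Lilrb3 at 1.5 and 1.6.

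Of 70 transcription factors with known roles in blood cells, 59 were kept, with a median percentile of 82.4. The coactivator gene Pou2af1 was the highest at 493.4 and 414.6 RPKM. Lef1 followed at 269.5 and 182.7, Ebf1 at 211.1 and 187.2, Bcl11a at 198.6 and 149.8 and Tcf3 at 226.4 and 108.3. Pax5, which fixes the B lineage choice, stood at 140.8 and 126.0 RPKM. Ebf1, Tcf3 and Pax5, the core of the B cell programme, all lay among the highest 10% of kept genes. Ikzf1, which encodes Ikaros, stood at 89.2 and 85.9 RPKM and made up 61.6% and 57.2% of the summed RPKM of the 5 Ikaros family genes. Ikzf3, which encodes Aiolos, was at 50.9 and 59.9 RPKM and Ikzf5 at 3.2 and 3.5, while Ikzf2 and Ikzf4 were below the limit. Erg, Spib and Lyl1 were also high, at 132.2 and 101.3, at 138.5 and 80.6, and at 147.5 and 68.5 RPKM. The 11 factors below the limit include Gata3 at 0.1 RPKM in both libraries, Gata1 at 1.4 and 0.1, Cebpa at 2.9 and 0.9 and Bcl11b at 0. Prdm1, which drives plasma cell fate, was at 0.2 and 0.3, and Bcl6, which is known in small pre-B and germinal centre cells, was barely kept at 1.2 and 1.1.

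Endogenous Abl1 stood at 85.2 and 59.0 RPKM and Bcr at 47.6 and 30.1. The retroviral transcript is a fusion of BCR and ABL sequence, and the sources used here do not say how its reads were treated, so these levels may not be those of the mouse genes alone. Of 46 partners and adaptors of BCR-ABL, 44 were kept, with a median percentile of 68.1. Within several families 1 member held most of the RPKM. Pik3cd, the leukocyte form of the PI3K catalytic subunit, stood at 287.1 and 202.8 RPKM and took 89.3% and 82.6% of the 4 class I genes. Akt1 took 95.3% and 91.8% of the AKT genes, at 199.7 and 129.0 RPKM. Inpp5d, the phosphatase SHIP1 that opposes PI3K, was at 159.0 and 135.2 RPKM. The RAS genes were more even, with Nras, the highest, at 45.0% and 49.5% of the 3. The adaptors Grb2, Crkl and Gab2, which bind or follow BCR-ABL, stood at 36.3 and 20.1, 34.8 and 32.2, and 8.8 and 9.0 RPKM.

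All 25 genes of the JAK-STAT list were kept, with a median percentile of 53.7. Stat5a and Stat5b, which BCR-ABL activates at the protein level, were at 14.8 and 9.3 RPKM and at 15.4 and 12, below Stat4 at 40.9 and 46.8. Pim1, a survival kinase, stood at 162.4 and 105.6 RPKM and took 88.2% and 92.8% of the PIM genes. Cish, a feedback inhibitor, was at 98.2 and 40.4 RPKM and Socs2 at 45.5 and 59.9, so the highest SOCS family gene was Cish in replicate 1 and Socs2 in replicate 2. Socs1 and Socs3, also feedback inhibitors, were at 32.4 and 7.1 and at 26.8 and 9.3. Among ERK feedback genes, 22 of 27 were kept, with a median percentile of 42.8. Dusp5 and Dusp6, phosphatases that act on ERK, were at 91.7 and 40.9 and at 69.0 and 57.3 RPKM, whereas Spry1 was at 8.2 and 4.7, Spry4 was below the limit and Egr1 was at 9.3 and 10.9.

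Genes of cell division were high as groups. All 39 mitosis genes were kept, with a median percentile of 91.1, and 38 of them lay above the median of kept genes. Top2a, the topoisomerase of dividing cells, stood at 203.6 and 312.8 RPKM and Mki67, which encodes the proliferation antigen Ki-67, at 140.2 and 258.7. All 45 DNA replication genes were kept, with a median percentile of 83.6, among them Mcm3 at 210.4 and 183.1 RPKM and Rrm1 at 141.3 and 150.9. The lowest of them in mean was Gins3, at 7.2 and 9.1 RPKM. Myc, a driver of growth, stood at 217.4 and 166.7 RPKM with 88.5% and 91.0% of the summed MYC family, and Mycn at 28.2 and 16.2. Ccnd3 took 91.8% and 85.2% of the D cyclins. Cdk4 stood at 260.3 and 178.7 RPKM, above Cdk6 at 31.9 and 34.6. Cell cycle inhibitors were transcribed alongside: Cdkn1a, which encodes p21, stood at 164.7 and 83.4 RPKM and Cdkn2a, the locus of p16 and p19ARF, at 66.5 and 25.3. Trp53 itself was at 253.5 and 163.0 RPKM, and all 16 genes of the p53 list were kept. Levels were summed over the transcripts of a gene, so p16 and p19ARF are not separated.

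Of 18 BCL2 family genes, 13 were kept. The pore formers Bax and Bak1 were the highest, at 156.6 and 89.5 and at 104.1 and 57.6 RPKM. Among 4 survival genes, Mcl1 led with 48.0% and 55.9% of their sum, at 61.1 and 64.5 RPKM. Bcl2l1, which encodes BCL-XL, was at 43.0 and 31.1, and Bcl2 at 15.9 and 13.6. The death activator Bcl2l11, which encodes BIM, was at 37.0 and 28.1 RPKM.

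Several groups of protein folding and synthesis genes were high, although the cytosolic ribosomal proteins were not as a group (below). The 8 genes of the TRiC chaperonin, which folds actin and tubulin, had a median percentile of 98.1, and the 13 genes of the translation initiation factor eIF3 had 97.9. The chaperone list, with 16 of 18 kept, was led by Hsp90ab1 at 1211.9 and 1328.0 RPKM, rank 3 in replicate 2. The 30 nucleolar genes had a median percentile of 84.6, with Ncl at 250.4 and 364.3 RPKM. In the serine and glycine list, 15 of 16 genes were kept. Gldc, which cleaves glycine to supply folate with carbon units, was the highest of them at 307.1 and 236.9 RPKM, above Shmt2 at 172.3 and 92.9. Aldoa and Ldha led the glycolysis list at 407.2 and 160.4 and at 324.8 and 200.6 RPKM, and Ldha took 99.9% of both lactate dehydrogenase genes in each library. In the chromatin lists, Ezh2, the H3K27 methyltransferase, took 94.9% and 95.5% of the EZH genes, Smarca4 took 96.6% and 95.5% of the SWI/SNF ATPases, and Chd4 took 82.5% and 81.6% of the NuRD ATPases.

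**Figure D2:**
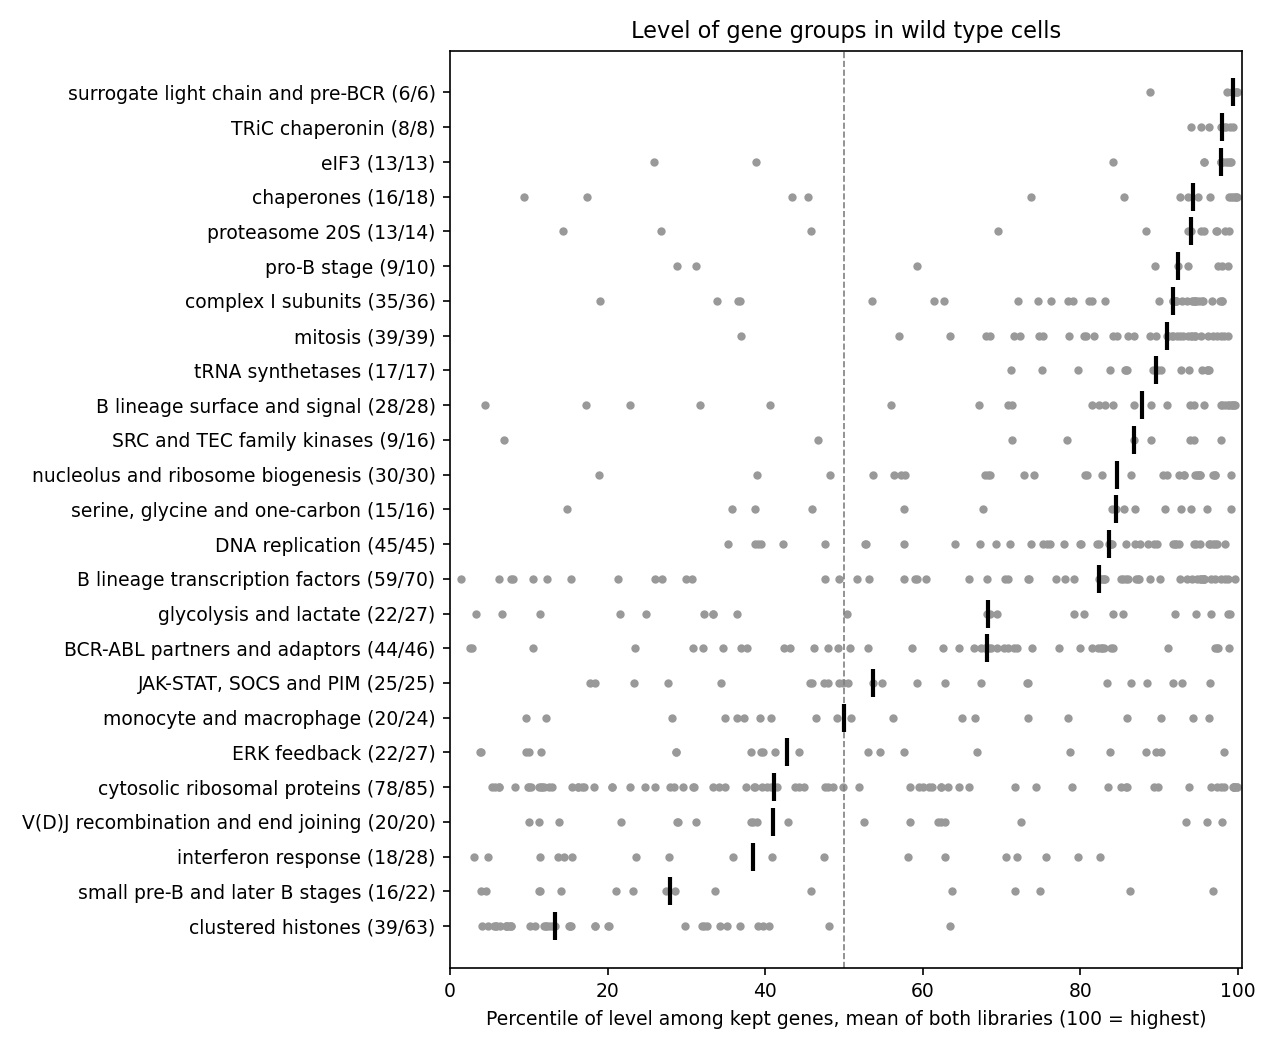
Percentile of the level of each kept member (grey points, mean of both libraries) in 25 gene lists, with the list median as a black bar; the fraction after each name is kept over listed genes, and the dashed line is the 50th percentile. The pre-BCR list has the highest median shown at 99.5 and the clustered histones the lowest at 13.3, and the cytosolic ribosomal proteins spread over nearly the whole range.

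The 25 genes with the highest mean level place the pre-BCR genes beside general abundant transcripts. Actb, the cytoskeletal actin, was at 2907.5 and 1579.9 RPKM, B2m, the light chain of class I molecules, at 1826.3 and 2024.4, and Gnb2l1, the ribosomal scaffold RACK1, at 1730.1 and 1125.8. Among the others were Pfn1, Hsp90ab1, Rpl8, Myl10, Crip1, Tubb5, Arhgdib, Vpreb3, Tmsb4x, Eef2, Fth1, Igll1, Ywhae, Coro1a, Atp5b, Serinc3, Ly6e, Lgals9, Sh3bgrl3, Arpc3 and Ucp2. Myl10, a myosin light chain gene also known from precursor lymphocytes, stood at 1404.3 and 1045.6 RPKM, at ranks 8 and 5. The 100 genes highest in mean held 16.9% and 14.6% of the summed RPKM. Kept genes had a median of 13.95 and 12.8 RPKM, and 620 and 489 of them had at least 100 RPKM.

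Cytosolic ribosomal proteins, most of which are made in equal numbers for each ribosome, had very unequal levels. Of 85 genes, paralogues of some subunits included, 78 were kept, with a median percentile of 41.1. Rpl8 stood at 1618.9 and 879.8 RPKM, Rpl4 at 385.9 and 447.2 and Rps3 at 437.5 and 322.6, whereas Rpl19 was at 1.7 and 5.4. The levels were set against the number of processed pseudogenes, retrotransposed copies of the messenger RNA, of at least 95% identity over at least 50% of their length. The 8 kept genes with 0 such copies had medians of 75.8 and 36.0 RPKM, the 9 with 1 copy 20.8 and 26.8, and the 21 with 2 to 4 copies 22 and 7.3. The 23 with 5 to 9 copies had 9.4 and 6.4, and the 16 with 10 or more 7.8 and 7.6, so the order was not the same at each step. Over all kept genes the medians went from 14.9 and 13.7 RPKM with 0 copies (9192 genes) to 6.8 and 4.9 with 10 or more (23 genes). The glycolytic gene Gapdh, with 65 copies, was at 1.9 and 1.0 RPKM, and Hmgb1, a cofactor of the RAG recombinase with 57 copies, at 2.6 and 3.5. Eef1a1, named after its value was seen, went the other way with 9 copies at 226.5 and 395.6 RPKM. The treatment of reads that map to several places is not stated for these files, and its part in these levels was not tested. Levels of genes with near-identical copies, Eno1 and Pgam1 of the glycolysis list included, are therefore uncertain.

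**Figure D3:**
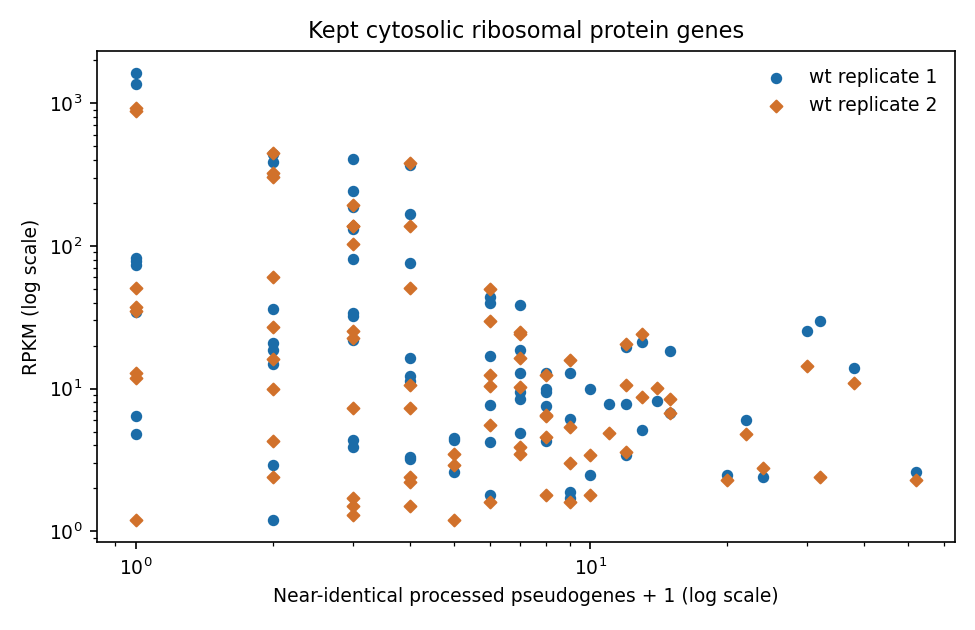
RPKM (log axis) of kept cytosolic ribosomal protein genes against the number of near-identical processed pseudogenes plus 1 (log axis), in wt replicate 1 (circles) and replicate 2 (diamonds). Genes above 100 RPKM all have fewer than 5 copies, and the 16 genes with 10 or more copies stay below 30 RPKM.

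Transcripts of other marrow cells were present, and several sets differed between the cultures, granulocyte genes most in summed level. In bulk RNA, fewer cells of a type and less RNA per cell cannot be told apart. Of 21 granulocyte genes, 16 were at least 2-fold higher in replicate 1, against 2.44% of all 22099 genes (540), and 0 were in replicate 2 (all genes 0.176%). The summed level of the list was 569.1 and 15.9 RPKM, and 12 of the 21 were listed at 0 in replicate 2. The lactoferrin gene Ltf was at 18.4 and 0.1 RPKM, Ngp, a neutrophil granule protein, at 72.5 and 0, and the S100a8 and S100a9 genes at 199.8 and 0.2 and at 193.2 and 0.1. Mast cell and basophil genes went the same way, with 6 of 12 at least 2-fold higher in replicate 1 and summed levels of 31.2 and 0.8 RPKM. Erythroid genes summed to 29.0 and 1.8 RPKM, with the beta globin genes Hbb-b1 and Hbb-b2 at 12 and 0.2 and at 12.1 and 0.2. Of 11 megakaryocyte genes, 5 were at least 2-fold higher in replicate 1, and the list summed to 45.7 and 19.9 RPKM.

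The listed macrophage transcripts were in both cultures at like levels. Of 24 genes, 20 were kept, with summed levels of 573.6 and 589.1 RPKM, and 0 differed by 2-fold. Lyz2, which encodes lysozyme, stood at 102.2 and 177.8 RPKM, Gpnmb at 127.8 and 75.9, Ctss at 65.4 and 65.1 and Cd68 at 55.2 and 45.1. Arg1 and Retnla are outside the list and were higher in replicate 1, at 40.8 and 2.6 and at 20.1 and 0.1 RPKM. Arg1 was named after its value was seen. Like levels of the listed genes therefore do not show that all transcripts of macrophages were alike. The defining markers of T cells were at or near 0, with Cd3e, Cd3g and Cd8a at 0 in both libraries and Cd3d at 0.1, although Lck and Lat were kept. None of 12 NK cell genes was kept. Of 24 stromal and endothelial genes 12 were kept, led by Vim at 393.0 and 357.4 RPKM, which blood cells also express. The collagen gene Col1a1 was at 5.5 and 4.2, and Cdh5, Tek and Lepr were at 0 in both. The part of these cells in the levels of genes that B lineage cells share with them, such as Cd74, Lyn and Ctss, was not tested.

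**Figure D4:**
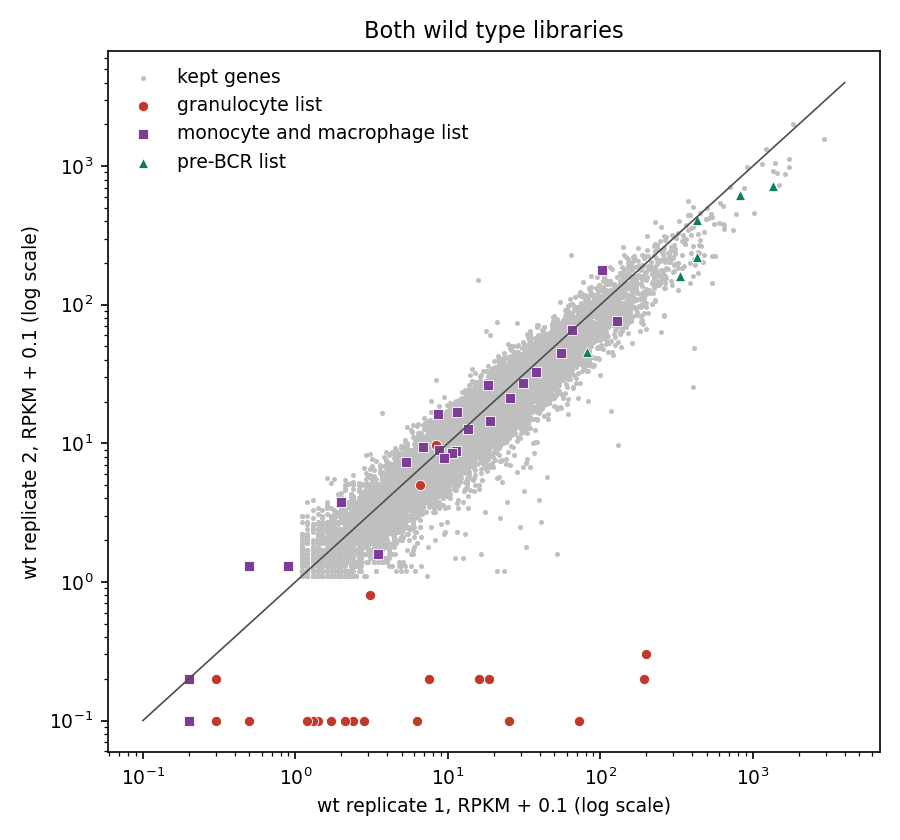
Level of each kept gene in wt replicate 2 against wt replicate 1, both as RPKM + 0.1 on log axes, with all members of 3 lists drawn whether kept or not; the line marks equal levels. Most granulocyte genes (red circles) lie far below the line, with S100a8 at 199.8 and 0.2 RPKM, while macrophage genes (purple squares) lie along it and pre-BCR genes (green triangles) lie slightly below it.

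The 2 libraries otherwise ranked genes alike, with Pearson's r = 0.96 on log2(RPKM + 1) and Spearman's rho = 0.95 across the 10400 kept genes, which are not independent replicates. They shared 71 of their 100 highest genes. Among kept genes, 409 were at least 2-fold higher in replicate 1 (3.93%) and 32 in replicate 2 (0.308%). Ratios were taken on log2(RPKM + 1), where the pseudocount shrinks differences between low values. Of these differences 92.7% were toward replicate 1, or 78.1% after both libraries were scaled to the same median (260 and 73 genes). After both libraries were centred on genes of like GC content, an alternative chosen after the data were seen, the counts were 118 and 33. Kept genes with large differences toward replicate 1 included Tpt1p at 52.0 and 1.5 RPKM and Rps20 at 402.4 and 25.2. Below 1 RPKM in replicate 2, and so not kept, were Tpt1, which encodes the translationally controlled tumour protein, at 47.1 and 0.8 RPKM, Retnla at 20.1 and 0.1 and the noncoding Snhg9 at 21.8 and 0.2. Among the largest differences toward replicate 2 was Scarna9, a small Cajal body RNA listed at 43 bases, at 15.7 and 151.5 RPKM. Ndufb4 was also among them at 3.6 and 16.4, as was the nuclear noncoding RNA Malat1 at 64.2 and 226.4.

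The difference between the wt libraries followed the base composition of the transcript. With the kept genes split into 5 equal groups by transcript GC content, the median log2 ratio of replicate 1 over replicate 2 was −0.35, −0.13, 0.09, 0.34 and 0.63 from the lowest to the highest. The group of highest GC, with a median of 58.1%, held 271 of the 409 genes that were 2-fold higher in replicate 1, and the group of lowest GC, with a median of 42.1%, held 18. By transcript length the medians fell from 0.26 in the shortest of 5 groups to −0.10 in the longest. Single genes show the range. Ccnd3, with a GC content of 58.4%, had a log2 ratio of 1.26, Tcf3 with 61.2% had 1.06 and Cdkn2a with 57.9% had 1.36, while Rag2 with 40.5% had −0.83, Cenpe with 42.9% had −0.91 and Top2a with 43.4% had −0.62. Genes of like GC content also differed, since Cd79b with 53.4% had 0.07 and Actb with 51.1% had 0.88. Mitosis genes, with a median GC of 46.9%, had a median ratio of −0.15, and pre-BCR genes, with 54.1%, had 0.88.

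The same order was found between the replicates of the mutant groups, which share no library with wt. From the lowest to the highest GC group, the median log2 ratio went from −0.22 to 0.48 in the ZnF1 mutant pair and from −0.38 to 0.55 in the ZnF4 mutant pair. Of the 409 genes, 400 were higher in replicate 1 of the ZnF1 mutant and 398 in replicate 1 of the ZnF4 mutant, against 61.7% and 54.1% of all kept genes. Of the 409, 207 and 204 were at least 2-fold higher there. In those pairs 3.6% and 2.57% of the genes kept in wt were at least 2-fold higher in replicate 1, and 0.413% and 0.519% in replicate 2. Granulocyte genes went the other way in the mutant pairs. In the ZnF1 mutant 21 of 21 were higher in replicate 2, with summed levels of 44.8 and 1757.5 RPKM, and in the ZnF4 mutant 15 of 21 were, with 15.3 and 75.4. The labels do not say what libraries of 1 replicate number share, and the cause of the GC pattern was not tested. Differences between the wt libraries in the levels above, such as those of Ccnd3, Tcf3, Top2a and the pre-BCR genes, stand beside it.

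**Figure D5:**
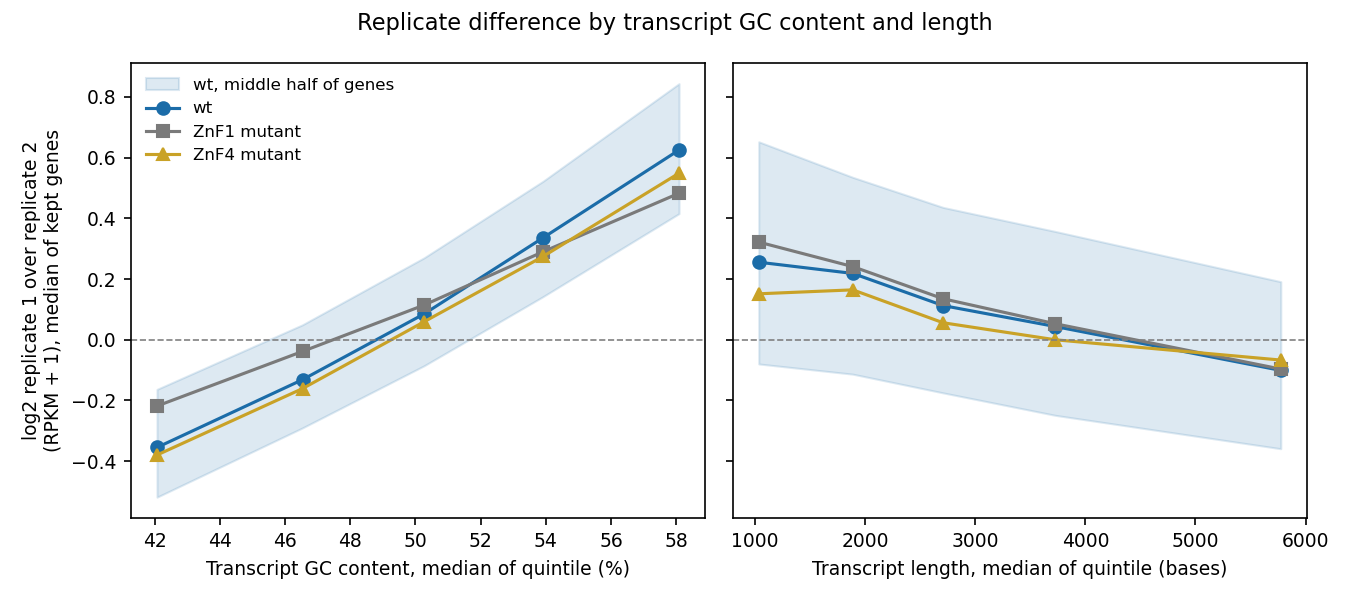
Median log2 ratio of replicate 1 over replicate 2, on RPKM + 1, of the genes kept in wt, in 5 equal groups by transcript GC content (left, %) and transcript length (right, bases), for the wt, ZnF1 mutant and ZnF4 mutant pairs; the shaded band holds the middle 50% of genes in wt. The wt line climbs from −0.35 to 0.63 with GC content and falls from 0.26 to −0.10 with length, and both mutant lines run close to it.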

How the data were processed

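Polyadenylated RNA of 6 libraries was sequenced, and the 2 wt libraries are described here. The deposited values are RPKM per RefSeq transcript, written to 1 decimal, per the file headers. TopHat, bedtools and the build mm9 are named in the submitters' processing notes, with no version. Depth is unknown, since values this coarsely rounded do not show what 1 read is worth. RPKM summed to 336949 and 287007 per wt library. From 26532 rows, 1 without a gene was left out, 39 of 40 symbols turned into numbers were restored by accession, and rows were summed by symbol.

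Genes of at least 1 RPKM in both libraries were kept. Ratios are log2 with a pseudocount of 1 RPKM, and a difference of 2-fold was counted. No statistical test was run. The named genes are members of typed lists, the 25 highest genes, the 10 largest replicate differences each way among genes of at least 5 RPKM in a library, and for families given by a name pattern the 4 highest and the lowest kept. Unnamed gene models were not named, and a few genes that this rule would name are not reported here. The genes and the 59 lists were chosen with earlier results of these data known. Of the listed genes, Hmgcs1 and Ahsp had no entry matched here.

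GC content (98.4% of kept genes) and pseudogene copies (95.3%, minimap2 2.31) came from GENCODE vM21 transcripts. Promoters came from RefSeq GRCm38.p6, for genes with 1 start. These builds differ from that of the files, so features were joined by symbol. Python 3.11.15 with pandas 2.3.3 was used.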

Additional observations from a re-analysis of the deposited data

How the results depend on the processing

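The count of kept genes, 10400, was 7637 to 13522 under other floors. Without wt replicate 1 or 2 it was 10582 or 10807. The median level of kept genes, 13.4 RPKM as the mean of both libraries, was 11.75 with a floor of 0.5 RPKM and 20.6 with a floor of 5, and 12.5 to 13.3 with 1 library left out. The share of the 100 highest genes, 15.8%, was 13.6% when reads (RPKM times length) were counted, and 14.97% to 17.14% with 1 library left out. Of the 54 lists with a kept gene, 41 had a median at or above the 50th percentile, and 38 to 45 under the alternatives. Here the medians of both libraries were averaged, while the list medians above are of each member's mean percentile. The stromal and endothelial list had 49.0 by the first and 50.5 by the second. Single lists moved more than the count. With no floor, 16 of 54 stayed within 5 points and 10 changed side of 50, with shifts from −32.6 to 42.0. With replicate 2 left out, 45 stayed within 5 points, and the megakaryocyte list moved by −54.2. The 441 genes of 2-fold difference between the wt libraries were 312 to 655 under other pseudocounts, floors, scaling and row choice. They were 151 (118 and 33) after centring on genes of like GC content, an alternative chosen after the data were seen. Rounding to 1 decimal limits the precision of low levels. No paired analysis was possible because a single group of 2 libraries was described and no groups were compared.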

Other observations

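Y-linked transcripts were found in both wt cultures, with Eif2s3y at 26.5 and 40.7 RPKM, Ddx3y at 9.8 and 18.7 and Kdm5d at 6.4 and 10.4, while Xist, the RNA of the inactive X chromosome, was at 0.1 and 0. Gene families of other tissues were nearly silent. Of 1096 olfactory receptor genes 1 was kept, of 312 vomeronasal receptor genes 0, of 47 keratin genes 1, and of 39 Hox genes 1, Hoxb4, at 3.1 and 2.0 RPKM.

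Clustered histone genes, whose main transcripts lack a poly(A) tail, had a median percentile of 13.3, with 39 of 63 kept, beside the 83.6 of the DNA replication list. RNA was selected by poly(A), and the part of this step in their levels was not tested. Interferon response genes were modest, with 18 of 28 kept and a median percentile of 38.4. Gbp2, a guanylate binding protein, led at 41.4 and 42.3 RPKM, whereas Rsad2 was at 4.3 and 0.3 and Mx1 at 2.0 and 0.6. Class I antigen presentation genes were higher, with 12 of 13 kept and a median percentile of 87.6, among them H2-K1 at 260.8 and 163.6 RPKM and the immunoproteasome gene Psmb8 at 233.3 and 137.8. Among homing receptors, Cxcr4, which holds B cell precursors in the marrow, was the highest at 82.7 and 56.0 RPKM, and S1pr1 was at 3.0 and 3.2.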
